A study of Mus musculus with 4 samples.

Results

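The 39 mouse Hox genes were followed through the cell types of the embryonic thymus. Members were all genes in the deposited matrices whose whole symbol is Hox, then a letter from a to d, then a number, which gave 39 of 27998 genes. The letter names the gene cluster on the chromosome and the number names the paralog group, the set of related genes at the same place in the 4 clusters. HoxA has 11 members on chromosome 6 (minus strand), HoxB has 10 on chromosome 11 (96194316 to 96368256, plus strand), HoxC has 9 on chromosome 15 (102921103 to 103036852, plus strand), and HoxD has 9 on chromosome 2 (74668310 to 74765142, plus strand). Positions are from GENCODE vM21 on GRCm38, the build that the files call mm10. Of the 39 genes, 35 had a UMI, the tag that marks each captured transcript, in some class of cells and some library.

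The study tested whether minoxidil or PGE2 given in utero restores the hypoplastic thymus of a mouse model of 22q11.2 deletion syndrome. Thymic lobes were taken at E13 to E13.5 from intercrosses of Tbx1+/neo2 mice, and there was 1 droplet library for each of 4 groups: Tbx1+/+ carrier, Tbx1neo2/neo2 carrier, Tbx1neo2/neo2 minoxidil, and Tbx1neo2/neo2 PGE2. Dams received an injection on each of E8, E9, and E10, which held 5% ethanol in PBS (carrier), minoxidil (200 µl, 0.55 mg/ml), or PGE2 (90 µl, 3.6 ng/µl). The neo2 allele is a germline hypomorph of Tbx1 and not a null, and hypoplastic lobes were pooled, so neither the spread between embryos nor the number of embryos per library is known. Values for the 4 libraries stand in the order just given. A level is the sum of UMIs of a gene in a class of cells, scaled to 1000000 UMIs of the class (CPM). Levels count captured transcripts and were not divided by gene length, and ratios are on the log2 scale. The intervals in parentheses are at 95%, exact for the Poisson count of a level, conditional on the 2 counts for a ratio, and Clopper-Pearson for a share. They cover counting error alone, since 1 library per group gives no replicates and no test between groups.

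Hox proteins are homeodomain transcription factors that give cells their position along the head to tail axis of the embryo. Genes at the 3′ end of each cluster, with low group numbers, are switched on first and reach furthest toward the head, and genes toward the 5′ end follow later and further back, a rule called collinearity. Each gene therefore has an anterior limit, and a tissue can be read by the highest group that it expresses. Neural crest cells that fill the pharyngeal arches and give rise to the mesenchyme of the thymus come from the hindbrain and carry genes of groups 1 to 4, whereas groups 6 to 9 mark the trunk and groups 10 to 13 the lumbar region, the limbs, and the tail. Hoxa3 is required to form the thymus and the parathyroid glands.

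Promoter windows that span 250 bases before to 50 bases after the start of transcription were taken from RefSeq (GRCm38.p6), which held a window for 22 of the 39 genes, 24 windows in all. Shown are 4 neighbours in HoxA that stand for the bands compared here, Hoxa2 for groups 1 to 3, Hoxa5 for groups 4 and 5, and Hoxa7 and Hoxa9 for groups 6 to 9. Capitals mark a match to the site shared by Hox and Pbx proteins (TGATNNAT, shown on the other strand in Hoxa2) or to the Cdx site (TTTATG, in Hoxa7), each searched on both strands.
Hoxa2, chr6:52164782-52165081, minus strand: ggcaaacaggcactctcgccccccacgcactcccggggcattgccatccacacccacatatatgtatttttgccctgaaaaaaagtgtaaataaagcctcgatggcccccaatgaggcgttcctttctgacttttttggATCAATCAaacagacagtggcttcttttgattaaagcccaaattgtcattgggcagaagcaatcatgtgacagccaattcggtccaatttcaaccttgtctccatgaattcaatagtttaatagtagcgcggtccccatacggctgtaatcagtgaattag
Hoxa5, chr6:52204538-52204837, minus strand: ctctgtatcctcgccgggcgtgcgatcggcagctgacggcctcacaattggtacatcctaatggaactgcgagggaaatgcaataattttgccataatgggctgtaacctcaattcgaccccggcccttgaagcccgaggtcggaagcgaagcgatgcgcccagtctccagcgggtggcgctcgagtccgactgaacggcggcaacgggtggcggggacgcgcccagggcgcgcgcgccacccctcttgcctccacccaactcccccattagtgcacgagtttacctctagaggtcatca
Hoxa7, chr6:52218524-52218823, minus strand: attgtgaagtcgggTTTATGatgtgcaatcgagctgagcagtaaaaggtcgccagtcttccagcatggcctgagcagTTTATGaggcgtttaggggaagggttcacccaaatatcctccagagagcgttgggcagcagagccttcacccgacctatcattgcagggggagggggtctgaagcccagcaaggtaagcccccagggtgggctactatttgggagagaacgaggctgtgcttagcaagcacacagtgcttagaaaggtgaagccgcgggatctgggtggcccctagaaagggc
Hoxa9, chr6:52227321-52227620, minus strand: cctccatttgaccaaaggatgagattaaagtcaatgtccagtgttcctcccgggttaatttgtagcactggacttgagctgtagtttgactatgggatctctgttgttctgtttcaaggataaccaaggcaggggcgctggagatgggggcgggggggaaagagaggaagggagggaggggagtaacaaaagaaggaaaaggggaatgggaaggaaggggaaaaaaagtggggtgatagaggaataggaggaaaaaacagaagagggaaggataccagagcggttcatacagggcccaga
The Hox-Pbx letters were found in 4 of the 24 windows (16.67%; Hoxa2, Hoxb1, Hoxb8, and Hoxd11) and in 8.846% of all 32851 mouse windows. The Cdx letters were found in 5 windows (20.83%; Hoxa7, Hoxb8, Hoxd3, Hoxd4, and Hoxd11) and in 11.85% of all. The direct repeat of a retinoic acid response element, AGGTCA again after any 5 bases, was in 0 of the 24 windows and in 0.009132% of all. Hoxb8 had both kinds of match in the same window, and Hoxd11 had them in separate windows. The median GC content was 57.67% over the Hox windows and 52.67% over all windows. A match of letters is a description and does not show that a factor binds there.

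The libraries held between 3362 and 11908 cells and between 151740600 and 292687940 UMIs, and the median UMIs per kept cell were 21125, 14108, 41084, and 34790. Cells were assigned to classes by the markers of their cluster, and the Hox genes took no part in the clustering. Mesenchymal cells numbered 2866, 6283, 992, and 881, and their marker genes (Pdgfra, Col1a1, Dcn, and 5 others) summed to 7694, 7164, 8921, and 8907 CPM. The largest cell cluster of the class differed between the carrier libraries, since the fibroblast cluster led by Ogn and Col1a1 had 3301 of the 6283 mesenchymal cells in the Tbx1neo2/neo2 carrier library, and the pericyte cluster led by Ndufa4l2 had 772 of the 2866 cells in Tbx1+/+ carrier. Between 4 and 35 barcodes were shared by each pair of libraries. The targeted gene Tbx1, a T-box transcription factor, had 3.30, 2.11, 3.56, and 1.99 CPM in mesenchymal cells and 2.36, 1.13, 1.37, and 0.33 CPM in epithelial cells, and hence stayed detectable in the hypomorphs.

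In mesenchymal cells, the Tbx1+/+ carrier library had genes of groups 1 to 5 and almost no UMIs beyond them, whereas the Tbx1neo2/neo2 carrier library had genes of groups 1 to 10. The 8 genes of groups 1 to 3 together had 235, 191, 233, and 170.3 CPM, and groups 4 and 5 had 78.9, 227, 96.1, and 85.8 CPM. Groups 6 to 9 had 0.814, 319, 0.548, and 3.98 CPM, so the trunk genes were 391-fold higher in Tbx1neo2/neo2 carrier than in Tbx1+/+ carrier, a log2 ratio of 8.61 (8.18 to 9.08). In this band both drug libraries lay far under Tbx1neo2/neo2 carrier, with minoxidil close to Tbx1+/+ carrier and PGE2 above it. Groups 10 to 13 had 0 UMIs in Tbx1+/+ carrier and 8.23 CPM in Tbx1neo2/neo2 carrier, at least 141-fold higher when the 0 is taken as 3 UMIs. The log2 ratio of Tbx1neo2/neo2 carrier over Tbx1+/+ carrier was -0.29 (-0.33 to -0.26) for groups 1 to 3 and 1.53 (1.48 to 1.57) for groups 4 and 5.

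Called here means at least 1.5-fold apart with Poisson intervals that do not overlap, among genes whose UMIs in the compared libraries sum to 20 or more. Of 30 Hox genes with enough UMIs, 20 were higher in Tbx1neo2/neo2 carrier mesenchyme, against 12.0% of all 15997 genes, and 5 were lower, against 11.9% of all genes. Their median log2 ratio was 3.87, with genes at 0 UMIs in 1 library entered at 3 UMIs, and that of all genes was 0.00399. The other 9 Hox genes had too few UMIs, among them Hoxa13, Hoxc10, Hoxc11, Hoxc12, Hoxc13, and Hoxd12, which had none in any mesenchymal library. Hoxb13 (2 UMIs) and Hoxd10 (14 UMIs) were counted in Tbx1neo2/neo2 carrier and not in Tbx1+/+ carrier, as was Hoxd13 (6 UMIs). With cells of at most 5% mitochondrial UMIs, in place of 10%, 2 of 27 Hox genes were called lower and 19 higher, and Hoxa4 (-0.53) was among those no longer called lower. When an unnamed cell cluster with mixed markers was counted as mesenchymal, the ratio of groups 6 to 9 was 7.01.

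**Figure D1:**
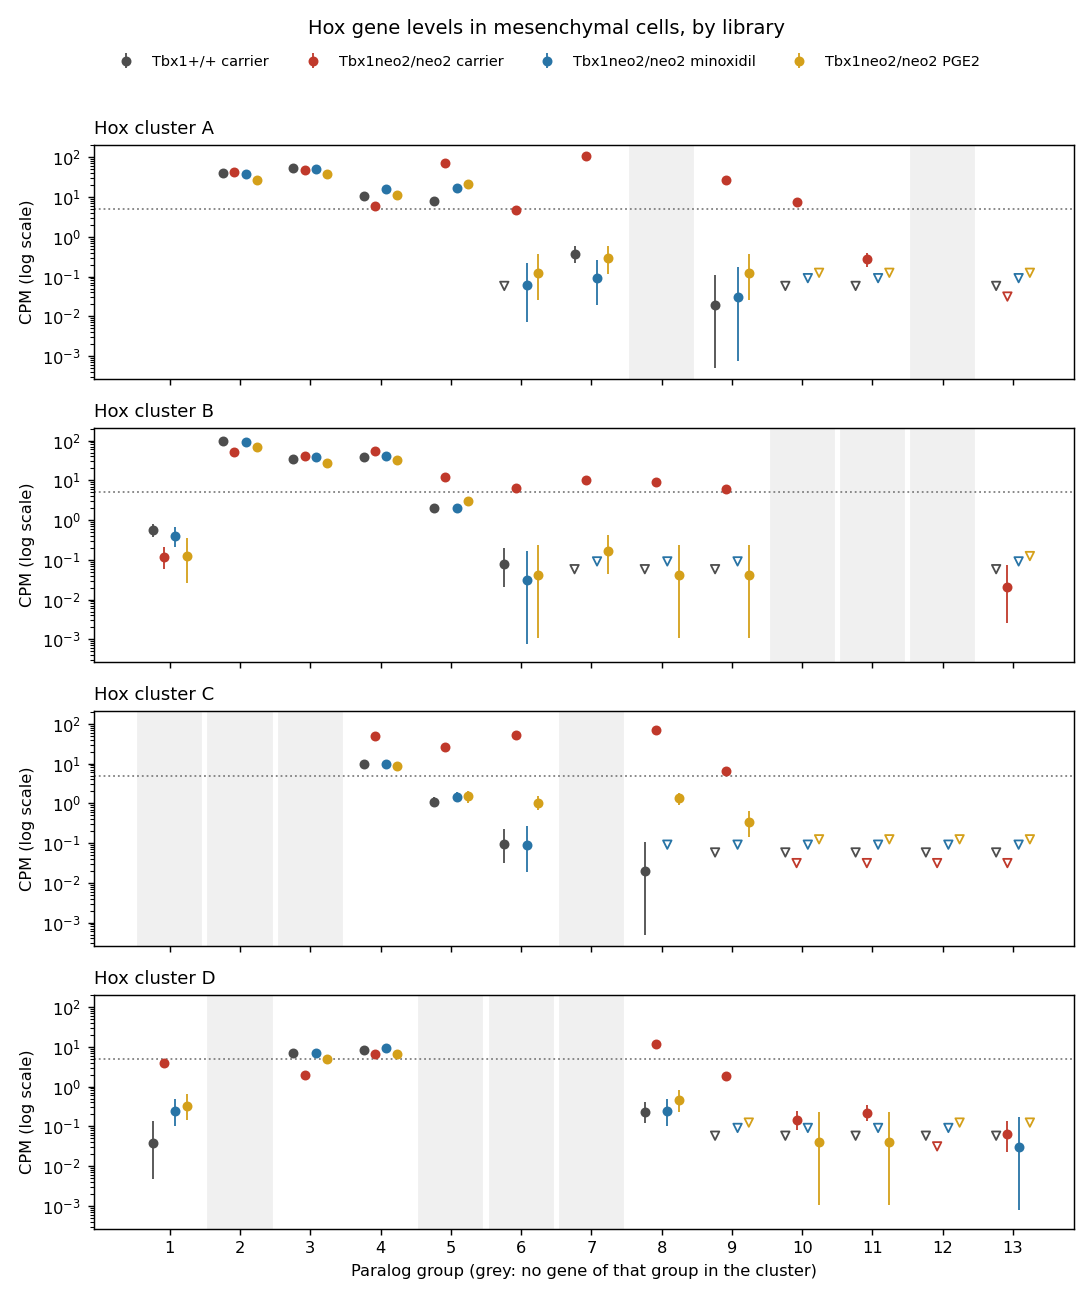
Levels of Hox genes in mesenchymal cells (CPM, log scale) by paralog group, with 1 panel for each Hox cluster and 1 colour for each library. Bars are exact Poisson 95% intervals, open triangles are genes with 0 UMIs drawn at the level of 3 UMIs, the dotted line is at 5 CPM, and grey marks groups without a gene in that cluster. Not every gene is drawn. Beyond group 5 the genes above 5 CPM are all those of Tbx1neo2/neo2 carrier, as in Hoxa7 with 109.8 CPM against at most 0.368 elsewhere.

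Among groups 1 to 3, the genes of hindbrain and pharyngeal arch position, levels were similar or lower in Tbx1neo2/neo2 carrier except for Hoxd1. Hoxa2, the selector gene of the second pharyngeal arch, had 39.3, 43.1, 39.1, and 27.4 CPM, and Hoxa3 had 53.6, 48.1, 52.3, and 37.6 CPM. Hoxa2 and Hoxa3 each gave a ratio near 0 between the carrier libraries, 0.13 (0.06 to 0.21) and -0.16 (-0.22 to -0.09), and PGE2 was the lowest of the 4 libraries in both. Hoxb3 followed the same course, with 34.5, 40.2, 39.1, and 28 CPM. Hoxb2, which also patterns the hindbrain, had 95.9, 52.3, 90.2, and 68.5 CPM and was lower in Tbx1neo2/neo2 carrier with a log2 ratio of -0.87 (-0.93 to -0.82). Hoxd3 had 7.02, 1.99, 7.09, and 4.81 CPM, a ratio of -1.82 (-2.08 to -1.56) and the second largest fall in the set. Much of its exonic sequence, 2225 bases, is shared on the same strand with Gm28230, and 388 bases with Hoxd4. How reads in shared bases were counted is not given in the sources used here and may bear on the level of Hoxd3. Hoxb1, which acts early in the hindbrain, had 0.562, 0.115, 0.396, and 0.124 CPM from only 29, 11, 13, and 3 UMIs. Its ratio of -2.29 (-3.44 to -1.24) was the largest fall in the set. Hoxd1, a gene of sensory neurons, broke the pattern of its group, with 2, 384, 8, and 8 UMIs and a ratio of 6.70 (4.83 to 9.75).

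Groups 4 and 5, the band of the lower hindbrain and neck, held genes that were lower, not called, and higher. Hoxa4 had 10.9, 5.94, 15.9, and 11 CPM and was lower in Tbx1neo2/neo2 carrier (-0.87, -1.04 to -0.70), and Hoxd4 had 8.3, 6.71, 9.47, and 6.76 CPM with no call (-0.31, -0.49 to -0.13). Hoxb4, known for its action in blood stem cells, had 38.8, 54.2, 40.4, and 33 CPM and a ratio of 0.48 (0.41 to 0.56), under 1.5-fold. Hoxc4 was well above that, with 9.77, 49.4, 9.68, and 8.59 CPM and a ratio of 2.34 (2.21 to 2.47). The 3 group 5 genes were all higher in Tbx1neo2/neo2 carrier. Hoxa5, which patterns the neck, the lung, and the shoulder girdle, had 8.05, 72.6, 17.3, and 22 CPM, a 9.02-fold difference between carrier libraries. Hoxb5 had 2.02, 11.9, 1.98, and 2.99 CPM and Hoxc5 had 1.11, 26.3, 1.46, and 1.49 CPM, with ratios of 2.56 (2.27 to 2.87) and 4.57 (4.20 to 4.98). In Hoxa5 both drug libraries lay between the carrier libraries.

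The trunk genes of groups 6 to 9, which shape the thoracic vertebrae and the ribs, held the largest differences. Hoxa7, which the study names among the raised regulators, had 19, 10493, 3, and 7 UMIs or 0.368, 109.8, 0.0913, and 0.29 CPM in mesenchymal cells. The library of Tbx1neo2/neo2 carrier alone was high, by 298-fold over Tbx1+/+ carrier, a ratio of 8.22 (7.58 to 8.95). Hoxc8, a gene of the lower thorax, had 1, 6862, 0, and 32 UMIs, which is 71.8 (70.2 to 73.6) CPM in Tbx1neo2/neo2 carrier, and a ratio of 11.86 (9.38 to 17.16) over a single UMI in Tbx1+/+ carrier. Hoxc6 had 5, 5115, 3, and 25 UMIs and 53.5 (52.1 to 55) CPM in Tbx1neo2/neo2 carrier, with a ratio of 9.11 (7.89 to 10.73). Hoxa9, also active in blood progenitors, had 1, 2590, 1, and 3 UMIs and a ratio of 10.45 (7.97 to 15.75). In PGE2 a few UMIs of Hoxc6 and Hoxc8 remained, with 1.04 (0.671 to 1.53) and 1.33 (0.908 to 1.87) CPM. The HoxB genes of the same groups also had nearly all their UMIs in Tbx1neo2/neo2 carrier. Hoxb6 had 4, 596, 1, and 1 UMIs, with a ratio of 6.33 (4.97 to 8.21), and Hoxb7 had 0, 978, 0, and 4 UMIs, at least 176-fold higher in Tbx1neo2/neo2 carrier. For Hoxb8 the UMIs were 0, 876, 0, and 1 and for Hoxb9 0, 581, 0, and 1, and the bounds were 158-fold and 105-fold. Hoxa6 had 0, 452, 2, and 3 UMIs and Hoxc9 had 0, 605, 0, and 8 UMIs, at least 81.3-fold and 109-fold higher. In HoxD, Hoxd8 had 12, 1108, 8, and 11 UMIs with a ratio of 5.64 (4.83 to 6.60), and Hoxd9 had 0, 174, 0, and 0 UMIs, at least 31.3-fold higher. No member of these groups was lower.

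Beyond group 9 the levels were low in every library. Hoxa10, a gene of the lumbar spine and the uterus, had 0, 717, 0, and 0 UMIs and was at least 129-fold higher in Tbx1neo2/neo2 carrier than in Tbx1+/+ carrier. Hoxa11 had 0, 26, 0, and 0 UMIs and Hoxd11 had 0, 21, 0, and 1, both genes of the forearm and lower leg, with bounds of 4.68-fold and 3.78-fold. Hoxd13, a gene of the digits, had 0, 6, 1, and 0 UMIs and was not tested. The level of 3 UMIs in mesenchymal cells was between 0.0314 and 0.124 CPM, so a lower level could not be told from 0.

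At a limit of 5 CPM, the mesenchyme of Tbx1+/+ carrier and of minoxidil reached from group 2 to group 5 with 10 members each, and that of PGE2 did so with 9 members, without Hoxd3. Tbx1neo2/neo2 carrier reached from group 2 to group 10 with 22 members. The highest group at this limit in HoxA was 5 in the first and 10 in Tbx1neo2/neo2 carrier, and in HoxB it was 4 and 9. In HoxC, Hoxc4 was the only gene over the limit in Tbx1+/+ carrier and Hoxc4 to Hoxc9 passed it in Tbx1neo2/neo2 carrier. In HoxD, Hoxd3 and Hoxd4 passed in Tbx1+/+ carrier, and Hoxd4 and Hoxd8 in Tbx1neo2/neo2 carrier. The mean paralog group over all Hox UMIs of the mesenchyme was 2.84, 5.25, 2.94, and 3.10, and groups 6 to 9 took 0.259%, 42.8%, 0.166%, and 1.53% of these UMIs. The summed levels of the clusters were 116, 321, 129, and 102 CPM for HoxA, 172, 191, 172, and 133 for HoxB, 11, 207, 11.2, and 12.8 for HoxC, and 15.6, 26.6, 17.1, and 12.4 for HoxD. As a fold, HoxC therefore differed most between the carrier libraries and HoxB least.

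**Figure D2:**
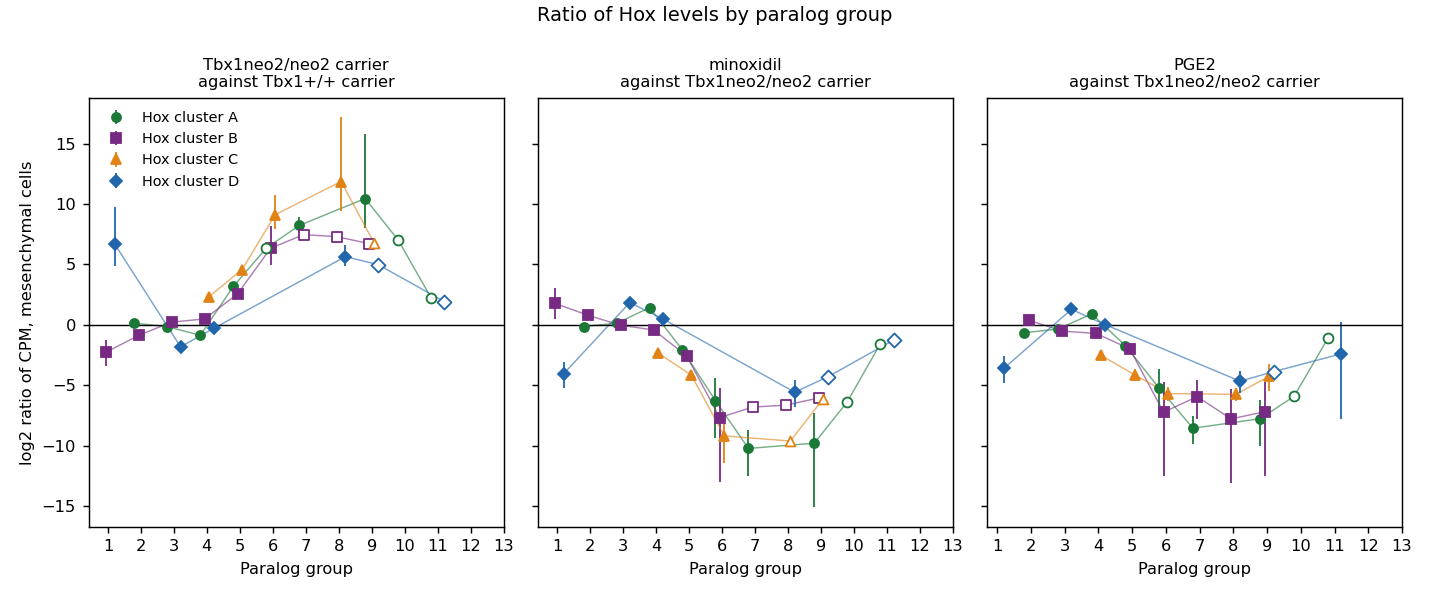
Log2 ratio of the mesenchymal CPM by paralog group in the 3 comparisons, 1 panel each, with 1 symbol for each Hox cluster. Bars are 95% conditional intervals, and open symbols are genes with 0 UMIs in 1 library, for which the bound at 3 UMIs is drawn. Not every gene is drawn. In the genotype panel the genes of groups 1 to 4 lie around or under 0 except Hoxd1 and Hoxc4, and those of groups 6 to 10 lie above 4, whereas in both drug panels groups 6 to 9 lie far under 0.

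Along each cluster, the difference grew with the group number in HoxA and HoxB, with Spearman's rho of 0.733 over 10 genes of HoxA and 0.933 over 9 genes of HoxB. In HoxD it was -0.0857 over 6 genes, where Hoxd1 at the 3′ end was high and Hoxd11 at the 5′ end had few UMIs. In HoxC the ratios of Hoxc4, Hoxc5, Hoxc6, and Hoxc8 were 2.34, 4.57, 9.11, and 11.86, in the order of the genes, that of Hoxc9 was 6.77 as a bound, and rho was 0.7 over the 5 genes. These are descriptions across genes of 1 chromosome region, which share libraries and are not independent, and genes at 0 UMIs entered at their bound.

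Minoxidil was compared with Tbx1neo2/neo2 carrier, the library that is also part of the genotype comparison, so the 2 contrasts are not independent. In the mesenchyme, 5 of 30 Hox genes were higher with minoxidil, against 12.6% of all 15772 genes, and 20 were lower, against 11.4% of all genes. Their median log2 ratio was -3.32 and that of all genes was -0.0143. Among the genes that were higher were Hoxa4 (1.42, 1.24 to 1.59), Hoxb1 (1.78, 0.51 to 3.08), Hoxb2 (0.79, 0.72 to 0.85), and Hoxd3 (1.83, 1.55 to 2.12). Hoxb1 lost its call under 5 of the alternative settings, with ratios of 1.35 to 1.75. Groups 6 to 9 were lower with a ratio of -9.18 (-9.94 to -8.52), groups 4 and 5 with -1.24 (-1.30 to -1.19), and groups 1 to 3 stood at 0.28 (0.24 to 0.32). Hoxa7 dropped from 10493 UMIs to 3, a ratio of -10.23 (-12.51 to -8.69), and Hoxa9 from 2590 to 1, a ratio of -9.80 (-15.10 to -7.32). For Hoxc6 the ratio was -9.20 (-11.47 to -7.65) and for Hoxb6 it was -7.68 (-12.99 to -5.20). Hoxc8 had 0 UMIs with minoxidil, at least 787-fold lower. Hoxa5 and Hoxc4, which Tbx1+/+ carrier also had, were lower by less, with -2.07 (-2.20 to -1.95) and -2.35 (-2.52 to -2.19).

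PGE2 was compared with the same Tbx1neo2/neo2 carrier library, so this contrast too shares it with the others. Of 29 Hox genes, 3 were higher with PGE2, against 11.7% of all 15661 genes, and 21 were lower, against 12.0% of all genes. Their median log2 ratio was -3.60 and that of all genes was -0.0551. Hoxa4 (0.89, 0.68 to 1.11) and Hoxd3 (1.27, 0.93 to 1.62) were among those that were higher. Hoxb2 at 0.39 (0.31 to 0.47) and Hoxd4 at 0.01 (-0.25 to 0.26) stood next in the order of ratios and were not called. Groups 6 to 9 had a ratio of -6.32 (-6.63 to -6.03), groups 4 and 5 of -1.40 (-1.47 to -1.34), and groups 1 to 3 of -0.17 (-0.22 to -0.12). Hoxa7 fell to 7 UMIs (-8.56, -9.88 to -7.52), Hoxa9 to 3 (-7.77, -10.05 to -6.22), and Hoxb6, Hoxb8, and Hoxb9 to 1 each, with ratios of -7.23 (-12.54 to -4.75), -7.79 (-13.09 to -5.31), and -7.20 (-12.50 to -4.71). Other trunk genes had ratios of -5.69 (-6.32 to -5.13) for Hoxc6, -5.76 (-6.31 to -5.26) for Hoxc8, -4.25 (-5.47 to -3.27) for Hoxc9, -5.25 (-7.53 to -3.69) for Hoxa6, and -4.67 (-5.67 to -3.82) for Hoxd8. Unlike with minoxidil, Hoxa2 and Hoxb4 were among the genes that were lower, with -0.66 (-0.78 to -0.54) and -0.72 (-0.83 to -0.61), and the difference between the drugs was not tested.

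To ask whether many cells or few carried the trunk genes, each cell was thinned to 5000 UMIs. A UMI of groups 6 to 9 was then found in 0.281% (0.121 to 0.552) of mesenchymal cells in Tbx1+/+ carrier (8 of 2850 cells), 45.3% (44 to 46.5) in Tbx1neo2/neo2 carrier (2801 of 6189), 0.407% (0.111 to 1.04) with minoxidil (4 of 983), and 1.05% (0.48 to 1.98) with PGE2 (9 of 859). Without thinning the shares were 1.05%, 55.6%, 1.21%, and 2.38%. The thinning left out cells with fewer UMIs, 16 in Tbx1+/+ carrier and 94 in Tbx1neo2/neo2 carrier. Erythroid cells, which should lack these genes, had them in 0 of 228 cells, 1.46% (6 of 411 cells), 0 of 140, and 0 of 335, at median depths of 13524, 11888, 21378, and 22077 UMIs against 16349, 13135, 30562, and 25370 in mesenchymal cells. The mesenchymal share of Tbx1neo2/neo2 carrier thus lay far above the erythroid share of its own library. In the other libraries the mesenchymal shares were small, and no erythroid cell had such a UMI after thinning. With 228, 140, and 335 erythroid cells there, whether these small shares exceed background was not tested. Hoxa7 alone was found in 0.105% (0.0217 to 0.307), 24.6% (23.5 to 25.7), 0.203% (0.0246 to 0.733), and 0.116% (0.00295 to 0.647) of mesenchymal cells. Groups 1 to 3 were in 66.9% (65.1 to 68.6), 56.4% (55.1 to 57.6), 65.2% (62.1 to 68.2), and 58.4% (55.1 to 61.8), and groups 4 and 5 in 26.6% (25 to 28.3), 57.2% (56 to 58.5), 31.1% (28.2 to 34.1), and 27.7% (24.7 to 30.8). Groups 10 to 13 were in 3.01% of the Tbx1neo2/neo2 carrier cells and in 0 of 2850 Tbx1+/+ carrier cells, which allows, at 3 cells, a share with a UMI after thinning of up to 0.105%.

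**Figure D3:**
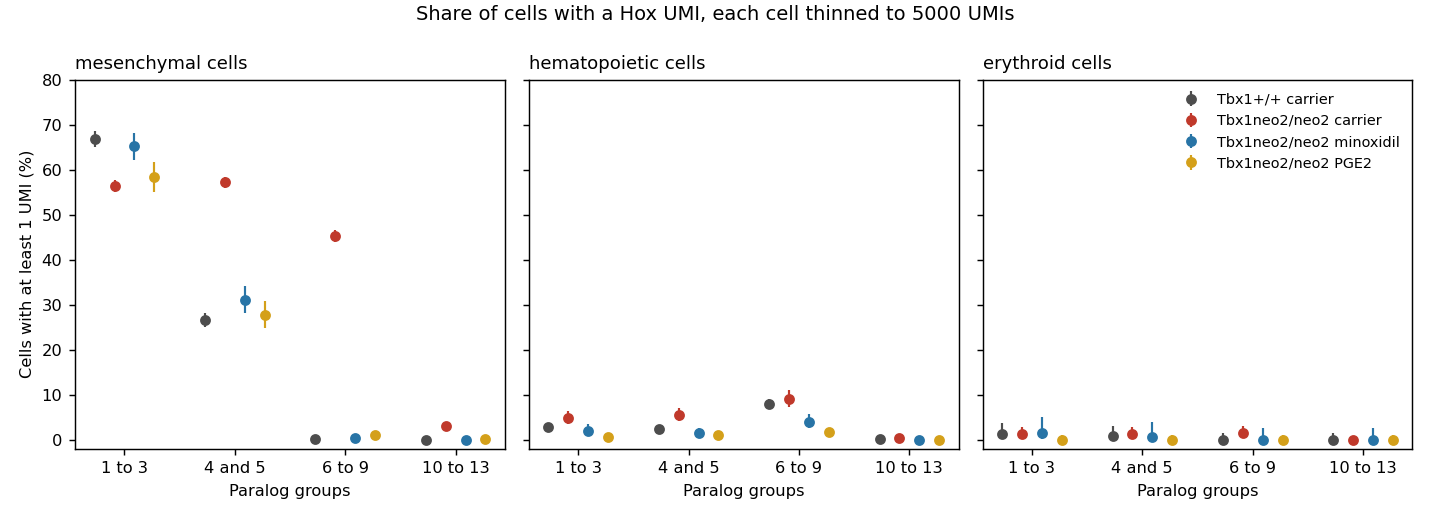
Share of cells (percent) with at least 1 UMI of each band of paralog groups after thinning each cell to 5000 UMIs, in mesenchymal, hematopoietic, and erythroid cells of the 4 libraries. Bars are exact Clopper-Pearson 95% intervals. Groups 6 to 9 reach 45.3% in the mesenchyme of Tbx1neo2/neo2 carrier and at most 1.05% in that of the other libraries.

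The early and the trunk genes were found in overlapping cells of Tbx1neo2/neo2 carrier. Of its 2801 mesenchymal cells with a UMI of groups 6 to 9, 46.3% (44.4 to 48.2) also had a UMI of groups 1 to 3, as did 64.7% (63.1 to 66.3) of the 3388 cells without. Groups 4 and 5 went the other way, in 65.3% (63.5 to 67.0) of cells with groups 6 to 9 and in 50.6% (48.9 to 52.3) of cells without. The median cell had 2 Hox genes with a UMI in Tbx1neo2/neo2 carrier and 1 in Tbx1+/+ carrier, and the most in any cell was 11 and 7. Cells share their library and depth, so these shares carry no test.

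All 6 mesenchymal cell clusters of Tbx1neo2/neo2 carrier held the trunk genes, at unequal levels. Groups 6 to 9 had 0.708, 573, 0.486, and 0 CPM in the cluster led by Igfbp5, Col2a1, and Sox9, 0.59, 444, 0, and 0.235 CPM in the cluster led by Eln and Acta2 (smooth muscle), and 1.68, 377, 1.2, and 2.61 CPM in the cycling cluster led by Mxd3. The fibroblast cluster led by Ogn had 0.715, 228, 0.581, and 14 CPM. Levels were lower in the pericyte cluster, 0.224, 72.6, 0, and 0.197 CPM, and in the mesothelial cluster led by Upk3b, 0.181, 26.7, 0, and 1.31 CPM. Within a cluster the log2 ratio between carrier libraries ran from 7.21 (4.63 to 12.55) in the mesothelial cluster, on 1 UMI in Tbx1+/+ carrier and 33 in Tbx1neo2/neo2 carrier, to 9.66 (8.44 to 11.28) in the Igfbp5 and Col2a1 cluster, on 5 and 8024 UMIs. The intervals of the mesothelial cluster and of the Igfbp5 and Col2a1 cluster overlap. That of the cycling cluster, with a ratio of 7.81 (7.26 to 8.42), lies under that of the Igfbp5 and Col2a1 cluster. Groups 6 to 9 were higher in Tbx1neo2/neo2 carrier in all 6 clusters. Groups 1 to 3 had 318, 179, 340.2, and 252 CPM in the Igfbp5 and Col2a1 cluster, a log2 ratio of -0.83 between carrier libraries, and 167, 169.6, 117, and 106 CPM in the smooth muscle cluster, a ratio of 0.02. Hoxa5 stood out in the fibroblast cluster, with 22.6, 56, 54.8, and 72.4 CPM, where the PGE2 library was the highest of the 4, whereas in the cycling cluster it had 5.43, 78.1, 7.29, and 17.8 CPM.

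**Figure D4:**
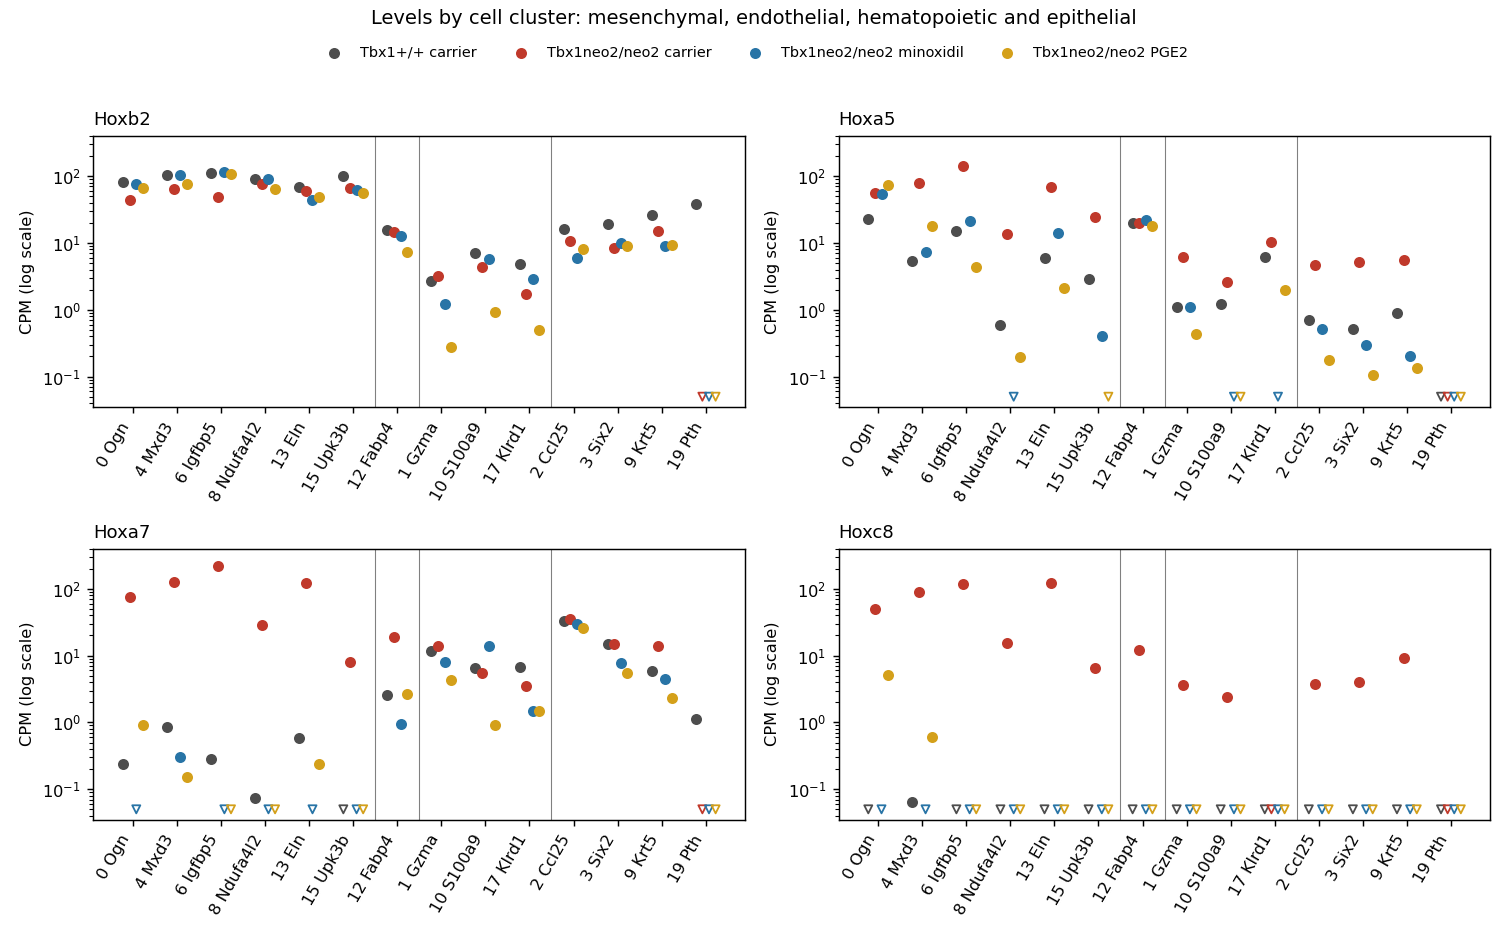
Level of Hoxb2, Hoxa5, Hoxa7, and Hoxc8 (CPM, log scale) in each named cell cluster of the 4 libraries, each cluster labelled by its number and leading gene. Open triangles are clusters with 0 UMIs, no error bars are drawn, and grey lines part mesenchymal, endothelial, hematopoietic, and epithelial clusters. Hoxa7 and Hoxc8 of Tbx1neo2/neo2 carrier stand above the other libraries in all 6 mesenchymal clusters, and Hoxa7 is also found in hematopoietic and epithelial clusters of every library.

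Cartilage genes moved with the trunk genes. The 7 chondrogenic genes (Sox9, Acan, Col2a1, Col11a1, and the 3 Col9 genes) were all higher in Tbx1neo2/neo2 carrier mesenchyme, 7 of 7, against 12.0% of all genes. All 7 were lower with minoxidil and with PGE2, against 11.4% and 12.0%. The study names these genes as raised in Tbx1neo2/neo2 mesenchyme and reports lower collagens and Sox9 after both drugs. It drew in part on these same libraries, so these counts were known in advance and are no independent support. Sox9, the regulator of chondrocyte fate, had 32.2 and 439 CPM, a log2 ratio of 3.77, Col11a1 had 44.1 and 235 CPM, a log2 ratio of 2.42, and Col9a3 had 3.3 and 292 CPM, a log2 ratio of 6.47. Cells with at least 3 of the 7 genes made up 3.02%, 44.5%, 3.36%, and 2.44% of mesenchymal cells after thinning. In Tbx1neo2/neo2 carrier, groups 6 to 9 had 410 CPM (403 to 416) in these 2753 cells, 291 CPM (286 to 297) in the 2283 cells with 1 or 2 of the genes, and 185 CPM (179 to 192) in the 1153 cells with none. In Tbx1+/+ carrier the corresponding levels were 0, 0.789, and 0.872 CPM. Trunk Hox UMIs were therefore also counted in Tbx1neo2/neo2 carrier cells that had no UMI of these 7 genes after thinning.

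Marker lists of other cell types were summed in the mesenchymal class, since such cells could carry Hox UMIs. Chondrocyte markers had 9.44, 469.9, 11, and 10.2 CPM, smooth muscle markers 426, 598, 713, and 2565, pericyte markers 366, 90.5, 410.2, and 574, and mesothelial markers 180, 26.6, 123, and 55.6. Myogenic markers had 33.2, 16.1, 31.9, and 21.5 CPM, cardiac muscle markers 25.9, 3.72, 20.8, and 9.46, neuronal markers 253, 70.4, 263, and 199.8, and those of glia and early neural crest 21.3, 18, 16.8, and 31.1. Among the other lists, epithelial markers had 147, 52.7, 43.7, and 67.7 CPM, endothelial 52, 26.5, 44.6, and 41.1, hematopoietic 21.4, 20.8, 10.8, and 29, and erythroid 1088, 3241, 1492, and 3741. Proliferation markers had 1023, 769, 969.7, and 1034 CPM, and thyroid and airway markers were under 1 CPM in all libraries. Among the lists summing to over 1 CPM, that of chondrocytes alone had a sum in Tbx1neo2/neo2 carrier above 1.5 times that of each other library. Of the 8 myogenic markers, 6 were higher in Tbx1neo2/neo2 carrier than in Tbx1+/+ carrier although their sum was lower, and 5 were lower with minoxidil and 6 with PGE2, against the same shares of all genes (12.0% higher, and 11.4% and 12.0% lower). The part of any of these lists in the Hox levels was not tested.

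Outside the mesenchyme, the endothelial, hematopoietic, and epithelial classes differed from each other in their Hox profiles. In each of them some trunk genes were also called higher in Tbx1neo2/neo2 carrier than in Tbx1+/+ carrier. Endothelial cells, which come from mesoderm and carry Hox genes of their region, had 69.4, 80.8, 71, and 62.2 CPM of groups 4 and 5 and 22.1, 90.3, 17.5, and 65.1 CPM of groups 6 to 9. Hoxb4 had 27.5, 26.6, 29.6, and 18.1 CPM, lowest with PGE2, and Hoxa5 had 19.7, 20.2, 22.2, and 18.1 CPM, and neither was called in the 3 comparisons. Hoxd8, a gene of vascular and lymphatic endothelium, had 9.46, 17.7, 6.9, and 23 CPM. Of 21 endothelial Hox genes with enough UMIs, 10 were higher in Tbx1neo2/neo2 carrier than in Tbx1+/+ carrier, against 4.03% of all 11975 genes: Hoxa7, Hoxa9, Hoxb7, Hoxb8, Hoxb9, Hoxc4, Hoxc5, Hoxc6, Hoxc8, and Hoxd8. Hoxa7 had 2.58, 19.1, 0.932, and 2.7 CPM, a ratio of 2.89 (2.25 to 3.59). Hoxc8 had 78 UMIs in 19 of the 244 endothelial cells of Tbx1neo2/neo2 carrier and Hoxc6 had 54 UMIs in 24 cells, and neither had a UMI in the endothelial cells of the other libraries. Mesenchymal markers in the endothelial class summed to 266, 1185, 506, and 202 CPM and were thus also highest in Tbx1neo2/neo2 carrier, and their part in the Hox levels was not tested. With minoxidil 11 of 22 endothelial Hox genes were lower than in Tbx1neo2/neo2 carrier, against 3.95% of all 11543 genes, and with PGE2 13 of 22 were lower, against 4.88% of all 11310 genes.

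The PGE2 endothelium differed from the others in HoxD. The summed HoxD level of endothelial cells was 15.2, 25.6, 9.88, and 88.4 CPM. Hoxd9 had 14, 18, 7, and 128 UMIs or 1.5, 2.8, 1.31, and 34.6 CPM, and Hoxd10, a gene of limb and spinal motor neurons, had 0, 0.155, 0.186, and 15.1 CPM. With Hoxd4 at 4.08, 4.35, 1.31, and 14.6 CPM these were the 3 genes higher with PGE2, against 5.46% of all genes, at ratios of 3.63 (2.91 to 4.43), 6.61 (4.07 to 11.93), and 1.75 (1.06 to 2.46). The Hoxd9 UMIs came from 26 of the 99 endothelial cells, with 32 in the cell that had most, and the level without that cell was 27.5 CPM. The 56 UMIs of Hoxd10 came from 11 cells, with 16 in the cell that had most, and the level without that cell was 11.45 CPM. For Hoxd4, 17 of 54 UMIs were in 1 cell, and the level without it was 10.6 CPM. The 5% of cells with most UMIs held 64.8%, 64.1%, and 71.4% of the UMIs of Hoxd4, Hoxd9, and Hoxd10. In the mesenchyme of the same library Hoxd9 had 0 UMIs and Hoxd10 had 1. The mean paralog group of endothelial Hox UMIs was 4.28, 5.32, 4.33, and 6.01, so the PGE2 endothelium had the highest.

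**Figure D5:**
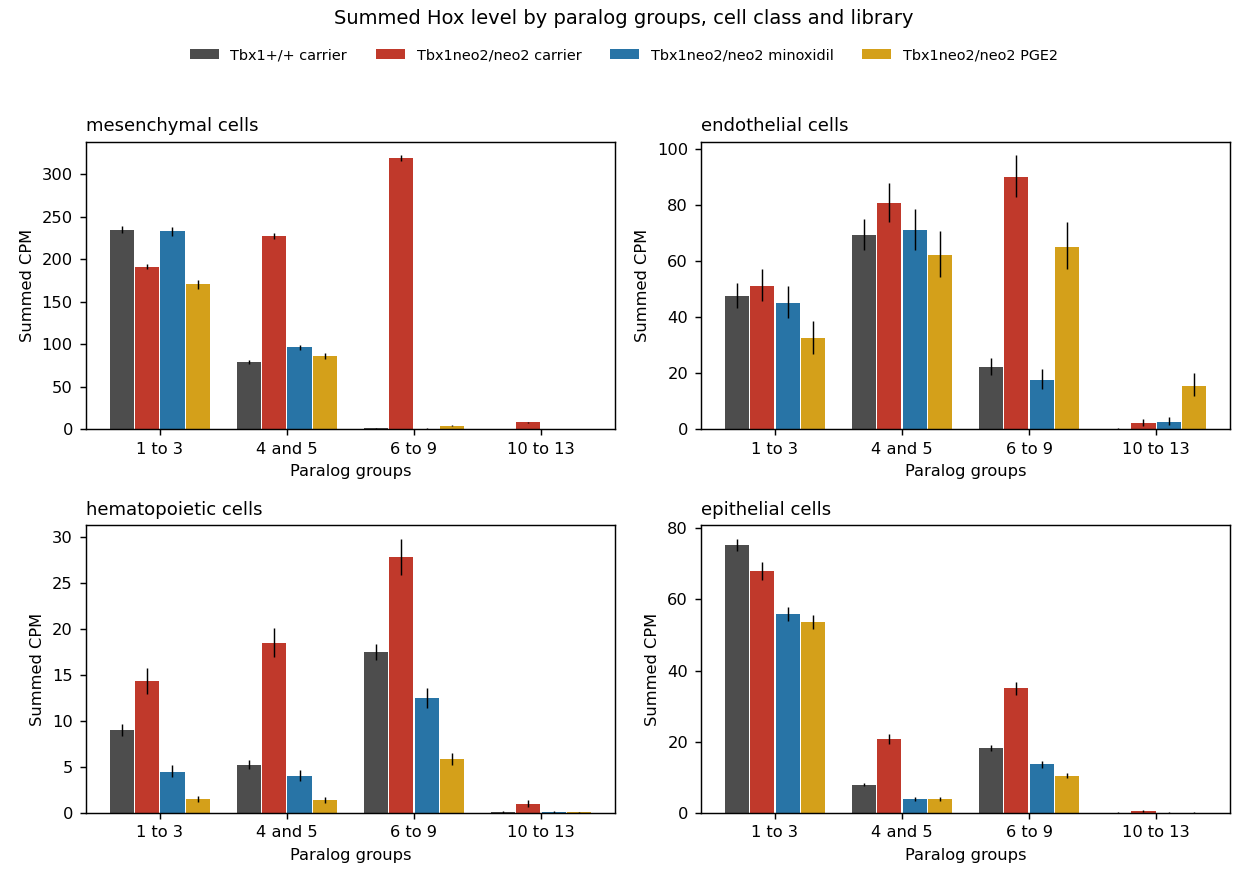
Summed level (CPM) of groups 1 to 3, 4 and 5, 6 to 9, and 10 to 13 in mesenchymal, endothelial, hematopoietic, and epithelial cells of the 4 libraries, with exact Poisson 95% intervals as bars. The mesenchyme of Tbx1neo2/neo2 carrier stands apart in groups 6 to 9 with 319 CPM, and groups 10 to 13 are highest in the endothelium of PGE2 with 15.4 CPM.

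In hematopoietic cells Hoxa7 and Hoxa9, which blood progenitors are known to express, were found in all 4 libraries. Hoxa7 had 11.3, 12.3, 8.05, and 4.02 CPM and Hoxa9 had 6.0, 6.04, 4.27, and 1.8 CPM, with no call between carrier libraries. Hoxa5 had 1.31, 5.76, 1.02, and 0.473 CPM and Hoxb4 had 2.49, 5.07, 1.59, and 0.673 CPM. Of 20 Hox genes, 11 were higher in Tbx1neo2/neo2 carrier than in Tbx1+/+ carrier, against 10.4% of all 14941 genes: Hoxa3, Hoxa5, Hoxa10, Hoxb3, Hoxb4, Hoxb5, Hoxc4, Hoxc5, Hoxc6, Hoxc8, and Hoxd8. Mesenchymal markers in the hematopoietic class summed to 291, 606, 237, and 138 CPM, highest in Tbx1neo2/neo2 carrier as well, and their part in these calls was not tested. Over 12 genes of groups 6 to 9, the hematopoietic level of Tbx1neo2/neo2 carrier was 5.13% of the mesenchymal level at the median, with a range from 1.89% to 22.3%. Hox levels in these cells were lower in both drug libraries than in Tbx1neo2/neo2 carrier, with 14 of 17 Hox genes lower with minoxidil, against 12.2% of all 14238 genes, and 16 of 16 lower with PGE2, against 17.0% of all 14260 genes. As a band, groups 6 to 9 had 17.5, 27.8, 12.5, and 5.85 CPM.

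Epithelial cells, which arise from the pouch endoderm, had UMIs of groups 2 and 3 and of Hoxa7 in every library. Hoxa2 had 26.7, 28.9, 26.6, and 24.9 CPM and Hoxa3 had 21.1, 21.8, 18.5, and 17.2 CPM, and neither was called in the 3 comparisons. Hoxb2 had 20.4, 10.5, 8.53, and 8.77 CPM, a ratio of -0.95 (-1.11 to -0.80) between carrier libraries. Hoxa7 had 17.9, 21, 13.6, and 10.2 CPM, and in the cluster led by Ccl25 and Psmb11, markers of cortical epithelium, it reached 33.1, 35.4, 30, and 25.4 CPM. In contrast to the mesenchyme, epithelial Hoxa7 was therefore present in every library and not called between carrier libraries (0.23, 0.11 to 0.35). Of 20 epithelial Hox genes, 11 were higher in Tbx1neo2/neo2 carrier than in Tbx1+/+ carrier, against 3.91% of all 15778 genes: Hoxa5, Hoxa9, Hoxb4, Hoxb5, Hoxb6, Hoxb7, Hoxc4, Hoxc5, Hoxc6, Hoxc8, and Hoxd8. With minoxidil 13 of 18 were lower, against 5.12% of all 15069 genes, and with PGE2 14 of 18 were lower, against 5.87% of all 15065 genes. Mesenchymal markers in this class summed to 148, 553, 43.1, and 59.1 CPM. The level of the 12 genes of groups 6 to 9 in Tbx1neo2/neo2 carrier was 6.88% of the mesenchymal level at the median, from 4.12% to 19.1%, and the part of mesenchymal RNA in it was not tested.

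Cells with Myod1 or Myog UMIs, regulators of skeletal muscle, were frequent enough in Tbx1neo2/neo2 carrier alone, with 5, 209, 10, and 1 cells. In its 209 cells, groups 1 to 3 had 56.9 (50.9 to 63.4) CPM, groups 4 and 5 76.5 (69.5 to 83.9), groups 6 to 9 115 (107 to 124), and groups 10 to 13 15.7 (12.7 to 19.3). Hoxa7 had 52.1 (46.4 to 58.3) CPM, Hoxa5 26.3 (22.3 to 30.8), Hoxa9 18.2 (14.9 to 22), and Hoxa3 17.8 (14.5 to 21.6). Their mean paralog group was 5.69. The profile thus reached as far back as that of the mesenchyme in the same library, and no comparison between libraries was possible. Mesenchymal markers summed to 1572 CPM in these 209 cells, against 7164 CPM in the mesenchyme of the same library. The part of mesenchymal RNA in these Hox levels was not tested. In erythroid cells groups 6 to 9 had 0, 3.32, 0.311, and 0 CPM.

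Among genes that work with or act on the Hox genes, a smaller share was called in the mesenchyme than among the Hox genes. Most of the retinoic acid genes were nonetheless called. TALE proteins are the homeodomain partners of Hox proteins on DNA, and 3 of 9 were lower in Tbx1neo2/neo2 carrier than in Tbx1+/+ carrier and none higher. Meis2 had 327 and 197 CPM, a log2 ratio of -0.73, and Meis1 had 135 and 86.6 CPM, a log2 ratio of -0.64. With minoxidil 3 of 9 were higher and with PGE2 1 of 9. Retinoic acid, a vitamin A product that opens Hox clusters from their 3′ end, was read by 17 genes of its synthesis, breakdown, and receptors, of which 7 were higher and 4 lower in Tbx1neo2/neo2 carrier. Aldh1a2, which makes retinoic acid in the embryo, had 171 and 27.2 CPM, a log2 ratio of -2.65. It was among the leading genes of the pericyte and mesothelial cell clusters. These clusters had 772 and 266 of the 2866 mesenchymal cells in Tbx1+/+ carrier, and 281 and 51 of the 6283 in Tbx1neo2/neo2 carrier. The part of this mix in the level of Aldh1a2 was not tested. Crabp2, which carries retinoic acid to the nucleus, had 56.7 and 209 CPM, a log2 ratio of 1.88. With minoxidil 4 of 17 were higher and 7 lower, and with PGE2 2 were higher and 9 lower.

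Of 18 regulators of Hox transcription with enough UMIs, 2 were higher (Kdm6b and Cbx2) and 1 was lower (Egr2) in Tbx1neo2/neo2 carrier. Ezh2, which silences Hox genes through Polycomb, had 139 and 166 CPM, a log2 ratio of 0.26, Kmt2a, which keeps them active, had 77.8 and 84.5 CPM, a log2 ratio of 0.12, and Suz12 had 66.5 and 63.2 CPM, a log2 ratio of -0.08, none of them called. Cdx2 and Cdx4 had 0 UMIs in the mesenchyme of every library. With minoxidil 1 was higher and 1 lower, and with PGE2 1 was higher and 3 lower. Of 10 genes of somitic and sclerotomal mesoderm, the source of trunk cartilage, 5 were higher and 3 lower in Tbx1neo2/neo2 carrier, among them Scx, a tendon regulator, with 21.8 and 193 CPM, a log2 ratio of 3.15, Meox1 with 20.8 and 94.8 CPM, a log2 ratio of 2.19, and Tbx18 with 44.5 and 19.7 CPM, a log2 ratio of -1.17. With minoxidil 3 were higher and 7 lower, and with PGE2 2 and 6. Tbx18 was among the leading genes of the mesothelial cell cluster, which had 266 cells in Tbx1+/+ carrier and 51 in Tbx1neo2/neo2 carrier. The part of this mix in the level of Tbx18 was not tested. Of 15 genes of cranial and pharyngeal neural crest mesenchyme, 5 were higher and 6 lower. Prrx1 had 262 and 255 CPM, a log2 ratio of -0.04, Twist1 had 192 and 246 CPM, a log2 ratio of 0.36, both without a call, and Hand2, a gene of arch and heart mesenchyme, had 124 and 36.3 CPM, a log2 ratio of -1.77. With minoxidil 6 were higher and 4 lower, and with PGE2 6 and 6. Counts for these lists stand against the 12.0% and 11.9% of all genes that were higher and lower between the carrier libraries, and against 12.6% and 11.4% with minoxidil and 11.7% and 12.0% with PGE2.

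Non-coding genes inside the clusters did not follow their neighbours closely. Hotairm1, in HoxA, had 47.6, 23.2, 73.4, and 55 CPM in mesenchymal cells, and Hoxaas3, which shares 586 exonic bases with Hoxa7 on the opposite strand, had 27, 24.8, 23.3, and 22 CPM. The level of Hoxaas3 was hence nearly even over the 4 libraries while that of Hoxa7 was not. Hoxb3os, opposite 2250 bases of Hoxb3, had 16.9, 9.22, 16.9, and 19.5 CPM. Whether the counting used the strand is not given in the sources used here, so UMIs of a gene and its antisense partner may not be fully apart.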

How the data were processed

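The authors aligned reads of each library to mm10 with Cell Ranger 5.0.1 and deposited raw UMI counts per gene and cell for barcodes called as cells, with no normalization. Whether intronic reads were counted is not given in the sources used here. A cell was kept if it had 200 genes or more and no more than 10% of mitochondrial UMIs, 10% being chosen here because the methods give no number. Kept cells numbered 11474, 10683, 3201, and 4152. Libraries were integrated by anchors in Seurat 5.3.0 (R 4.3.3) on 2000 variable genes, 30 dimensions, and resolution 0.3, without the Hox genes and the genes of the lists compared. Clusters took their class from lists of marker genes (mesenchymal, myogenic, endothelial, hematopoietic, erythroid, epithelial, and related types), with at least 3 markers detected in 10% of cells, and 3 clusters with low UMIs or mixed markers stayed unnamed. The margin between the best lists was set after their scores had been seen. Doublets were kept in the values reported.

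UMIs were summed per class and library in Python 3.11.15 (numpy 2.4.6, scipy 1.17.1, and pandas 2.3.3), and TMM factors came from edgeR 4.0.16, Scrublet scores from scanpy 1.11.5, and figures from matplotlib 3.10.9. A count of 0 was compared at 3 UMIs in that library, and the confidence level was 95%. The 3 comparisons were Tbx1neo2/neo2 carrier against Tbx1+/+ carrier and each drug library against Tbx1neo2/neo2 carrier. Chondrogenic cells are those with at least 3 of 7 genes after thinning to 5000 UMIs. Myod1/Myog-positive cells are those of mesenchymal or myogenic clusters with at least 2 UMIs of Myod1 and Myog together. Cells of the myogenic cluster with fewer of these UMIs were in no class, and that cluster had 309 cells in Tbx1neo2/neo2 carrier. All members were accounted for. Named with values were the member with most mesenchymal CPM in each paralog group, the 5 largest and 5 smallest mesenchymal ratios per comparison, the 4 highest members in any other class, Hoxa7, and the 3 genes with most mesenchymal CPM of each list, and all other genes, cell clusters, and values named were chosen after they had been seen. Some genes that these rules select are not reported here, though counts and sums include them. The members and lists were chosen with earlier results of these data known. Alternatives changed the mitochondrial limit, the class of a cell, the doublets, the scaling, the minimum of UMIs, the fold, the thinning, and the cells included.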

Additional observations from a re-analysis of the deposited data

Results flagged for a closer look

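Data outside the compared measurements also held signal above Tbx1+/+ carrier. Hoxb5os, a non-coding RNA gene opposite 100 exonic bases of Hoxb5, had 4.32 CPM in the mesenchyme of Tbx1neo2/neo2 carrier and 0.718 CPM in that of Tbx1+/+ carrier, from 413 and 37 UMIs, with 17 and 21 UMIs under minoxidil and PGE2. Hoxd3os1, which shares 347 exonic bases with Hoxd3 and with Hoxd4 on the opposite strand, had 3.17 CPM against 0.116 CPM, from 303 and 6 UMIs, and 3 UMIs in each drug library. Hoxd3 was lower in that comparison, so Hoxd3os1 differed in the other direction from the gene that it overlaps.

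Cell clusters that stayed without a name held trunk genes as well. In cluster 5, led by Chga and Pth with markers of several classes, groups 6 to 9 had 163 CPM in 69 cells of Tbx1neo2/neo2 carrier and 19.3 CPM in 1919 cells of Tbx1+/+ carrier, with 10.4 and 11 CPM under minoxidil and PGE2. In cluster 7, which had few UMIs per cell and was led by AY036118 and Gm42418, they had 130 CPM in 851 cells and 8.57 CPM in 230 cells. The drug libraries had 6.82 and 0 CPM there. No group had the number of samples needed to look for samples far from the rest.

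Against Tbx1neo2/neo2 carrier, 3 Hox genes were called in opposite directions in different cell classes, and the difference between classes was not tested. With PGE2, Hoxa4 was higher in mesenchymal cells (log2 ratio 0.895) and lower in hematopoietic (-2.46, from 29 and 10 UMIs) and epithelial cells (-0.97). Hoxd9 was higher in endothelial cells with PGE2 (3.63) and lower in mesenchymal cells (-3.87 as a bound, from 174 and 0 UMIs). With minoxidil, Hoxb2 was higher in mesenchymal cells (0.786) and lower in hematopoietic cells (-1.10, from 95 and 69 UMIs).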

How the results depend on the processing

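Each of the 3 comparisons rested on 1 library per group, so leaving out a replicate was not possible. No paired analysis was possible because each group has 1 library. Of the comparison results recomputed under an alternative, 64 moved within the 1.5-fold range of a count or the interval of a value and 28 moved beyond it, and no result changed direction. Among single gene ratios, 231 kept their side of the call and 7 lost their call, among them Hoxa4 (-0.53) at 5% mitochondrial UMIs in the genotype comparison and Hoxb1 with minoxidil under 5 settings. In the genotype comparison the Hox genes called lower numbered 2 to 6, against 5 in the values reported, with 2 at 5% mitochondrial UMIs. All Hox genes called numbered 21 to 26 in that comparison, 22 to 26 with minoxidil, and 21 to 25 with PGE2.

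The log2 ratio of groups 1 to 3 (-0.29) was -0.35 at 5% mitochondrial UMIs, -0.49 without chondrogenic cells, and -0.24 with the mixed cluster counted as mesenchymal. That of groups 4 and 5 (1.53) was 1.87 at 5% mitochondrial UMIs, 1.58 with the class from each cell's own markers, 1.39 without chondrogenic cells, 1.61 with the mixed cluster, and 1.41 as a mean over cells. That of groups 6 to 9 (8.61) was 7.71 with own markers and 7.01 with the mixed cluster. The highest mesenchymal group at 20 CPM was 4 in Tbx1+/+ carrier, 9 in Tbx1neo2/neo2 carrier, and 4 with minoxidil, and at 1 CPM it was 8 with PGE2. Shares of cells with groups 6 to 9 at 2000 UMIs were 0.0349% in Tbx1+/+ carrier, 32.2% in Tbx1neo2/neo2 carrier, and 0.459% with PGE2, without thinning 1.05%, 55.6%, 1.21%, and 2.38%, and with at least 2 UMIs 0.0351%, 33.2%, 0%, and 0.349% in library order. With 1 UMI of Myod1 or Myog, groups 1 to 3, 4 and 5, and 6 to 9 had 86.9, 111.3, and 155.6 CPM. The cause of these moves was not tested.

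Scrublet called 1 of 10901 cells (0.009173%) in Tbx1neo2/neo2 carrier, so leaving out its doublets was not run, and the 5% of cells with the highest score were left out instead. That setting, the mixed cluster, and the separate cell clusters were chosen after seeing the data. Depth limits the low levels: 3 UMIs in mesenchymal cells were 0.0314 to 0.124 CPM.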
